A study of Homo sapiens with 4 samples.

Results

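The genes described here are 9 genes of retinoid and lipid droplet handling tied to the resting state of hepatic stellate cells, among 63677 Ensembl genes in the count table. They were chosen by name for their known roles, with earlier results of these data known. They comprise the retinoic acid carrier CRABP2, the retinol-esterifying enzyme LRAT and the retinoic acid receptors RARA, RARB and RARG. The others are the retinoid X receptor RXRA, the fatty acid receptor PPARG and the droplet coat proteins PLIN2 and PLIN3. RNA was sequenced from LX-2 cells, a human cell line established from hepatic stellate cells, after transfection with a mimic of the microRNA miR-6133-5p or with the negative control mimic miControl. Either mimic was used at 20 nM, 5 ng/mL of rhTGF-β1 was given to all cells 24 h later, and RNA was taken after a further 24 h, which is 48 h from transfection. There were 2 libraries per group, here called replicates 1 and 2. Both groups received rhTGF-β1, so neither shows LX-2 cells without it, and all libraries came from 1 cell line. The labels do not say that replicates came from separate cultures, so p-values measure the spread between these libraries, which may be technical.

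Stellate cells of the resting liver store vitamin A as retinyl esters inside lipid droplets and lose these droplets when they become matrix-producing myofibroblasts. LRAT makes the stored ester, CRABP2 carries retinoic acid to the nucleus, and the RAR proteins bind retinoic acid and pair with an RXR protein on direct repeats in DNA. PPARG also pairs with RXR proteins and drives fat storage genes, and the perilipins (PLIN genes) coat the droplet surface and govern access of lipases.

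2 sequences are shown, the precursor of the transfected microRNA and the stretch of a RARB promoter that holds the retinoid half-sites, because RARB was the member with the largest change. Both were taken from RefSeq on GRCh38.p14. The hairpin of MIR6133 is at chr7:133290881-133290988 on the plus strand, and the mature miR-6133-5p is named only. The RARB stretch is at chr3:25428185-25428251 on the plus strand, and its capitals mark 2 half-sites of a direct repeat with 5 bases between them, a motif called DR5.
MIR6133 hairpin: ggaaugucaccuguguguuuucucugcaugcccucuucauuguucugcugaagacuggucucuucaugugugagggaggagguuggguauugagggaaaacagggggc
RARB promoter stretch: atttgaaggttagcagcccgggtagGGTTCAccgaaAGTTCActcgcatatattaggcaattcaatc
The first capital lay 53 bases before the transcript start annotated there. Gene positions given further on are on GRCh37, and no position was compared between the builds. Direct repeats of this half-site with 1, 2 or 5 bases between the copies (DR1, DR2 and DR5) were searched on both strands of 35116 promoters of 300 bases. DR1 was present in 46 of them (0.131%), DR2 in 14 (0.0399%) and DR5 in 31 (0.0883%). The 9 genes had 20 such promoters, 6 of PPARG, 4 of RARB, 3 of RARA, 2 of RXRA and 1 of each other gene, and the RARB stretch was the only match among them. A match is a description of letters, and since reads were counted per gene, RARB counts cannot be assigned to any of its 4 promoters.

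The miControl libraries held 51862006 and 57903388 counts and the miR-6133-5p libraries 61747010 and 93811213, and the deposited mapping summary gave uniquely mapped shares of 96.5% to 96.8% of the read pairs. Levels are given as CPM, here counts scaled by the library total and its TMM factor, so that 1 count was worth 0.0101 to 0.0203 CPM. A gene passed where edgeR's quasi-likelihood test gave an adjusted p below 0.01, and was called where its log2 fold change (miR-6133-5p over miControl) was also beyond 0.8. The mesenchymal markers VIM (1555 to 2030 CPM) and PDGFRB (38.3 to 47.4 CPM) were present in every library. Among the genes listed as markers of resting stellate cells, GFAP had 8 counts in each library. DES, which is also in the list of mesenchymal markers, had 0 to 2 counts. Of the 34 genes listed for resting cells, 19 had enough counts to be tested, and the list summed to 596 to 653 CPM per library.

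Of the 9 genes, 8 had enough counts to be tested and LRAT did not. Among the 8 tested, 4 passed, against 18.8% of all 18252 tested genes. RARB and PLIN3 rose, against 7.96% of all tested genes that passed as higher, and RARA and RXRA fell, against 10.9% that passed as lower. RARB was the only member called, against 8.44% of all tested genes. CRABP2, RARG, PPARG and PLIN2 did not pass. The groups did not overlap for 5 of the 8 genes, 3 above and 2 below miControl, and 64.4% of all tested genes likewise had groups that did not overlap. The median log2 fold change of the 8 genes was 0.03 and that of all tested genes was 0.03. With library totals alone in place of TMM, the median of all tested genes was 0.19, and the values of all 8 members shifted upwards with it. In RNA from whole cultures, fewer cells of a kind and less RNA per cell cannot be told apart.

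**Figure D1:**
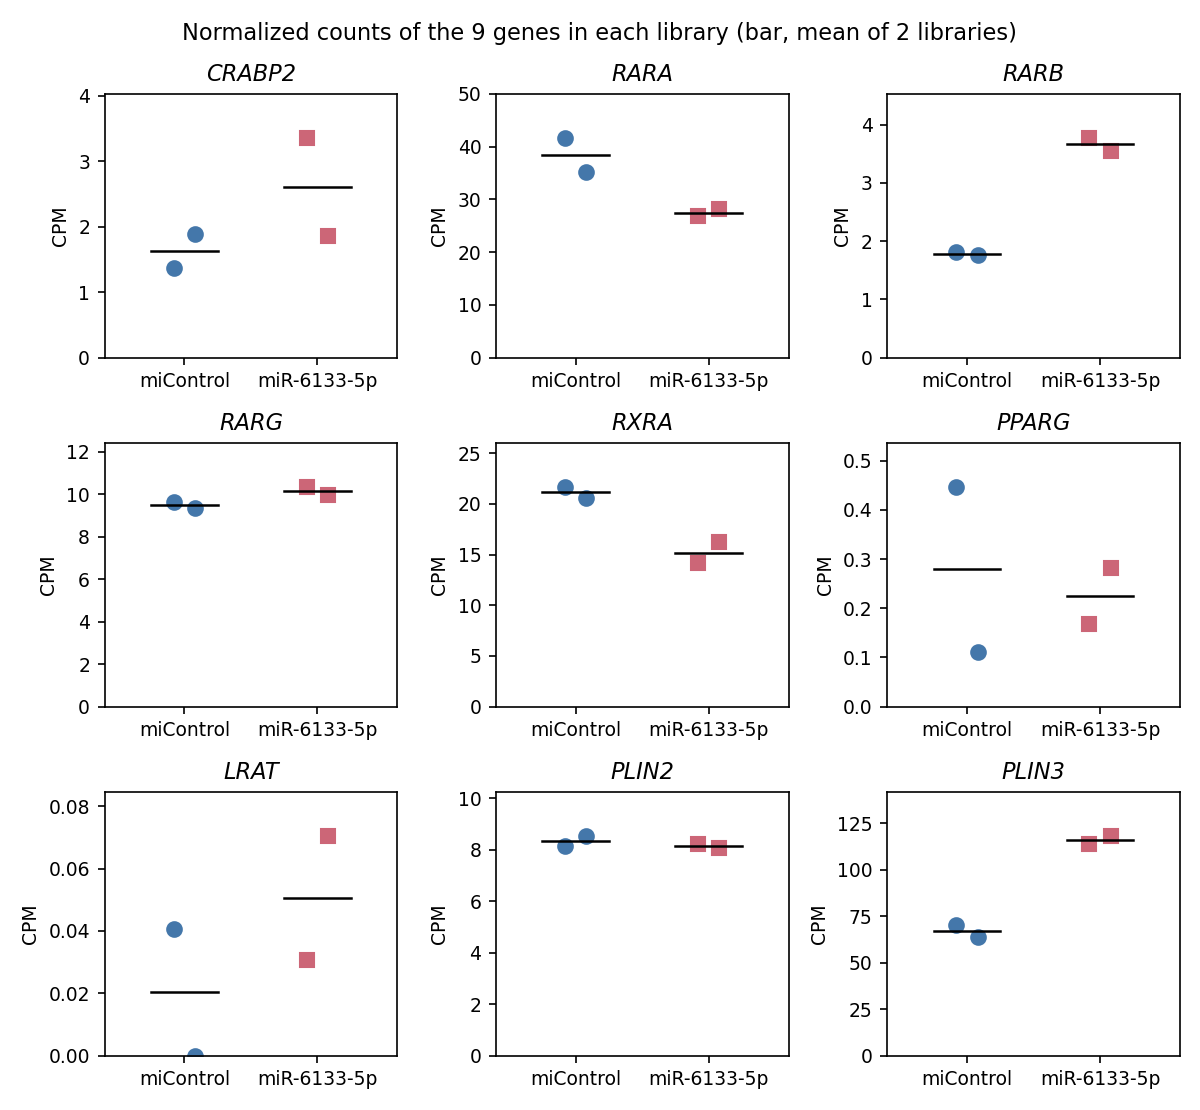
CPM of each of the 9 genes in each library, with miControl as circles, miR-6133-5p as squares and a bar at the mean of 2 libraries; each panel has its own axis starting at 0. RARB and PLIN3 lie higher and RARA and RXRA lower in both miR-6133-5p libraries, whereas the libraries of CRABP2, PPARG, LRAT and PLIN2 overlap between groups.

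CRABP2 (ENSG00000143320, GRCh37 chromosome 1, 156669398 to 156675608, minus strand) carries retinoic acid from the cytosol to its receptors. Its level was 1.36 and 1.89 CPM in miControl and 3.37 and 1.87 CPM in miR-6133-5p. Only miR-6133-5p replicate 1 stood above the rest, and replicate 2 lay between the miControl libraries. The log2 fold change was 0.67 (SE 0.30, n = 2 per group, 95% interval 0.03 to 1.30) and did not pass (adjusted p = 0.109). Without miR-6133-5p replicate 2 it was 1.03 (adjusted p = 0.00131), and without replicate 1 it was 0.18 (adjusted p = 0.699), so that the choice of library decided the call.

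LRAT (ENSG00000121207, chromosome 4, 155548097 to 155674272, plus strand), which esterifies retinol for storage, had 2 and 0 counts in miControl and 2 and 7 counts in miR-6133-5p. At 0 to 0.0706 CPM it was at or under the floor of 3 counts in 3 of 4 libraries, and a difference was not detectable at this depth.

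The retinoic acid receptors differed in direction. RARA (ENSG00000131759, chromosome 17, 38465432 to 38513895, plus strand), the receptor present in most tissues, was measured at 41.7 and 35.3 CPM in miControl and at 26.8 and 28.2 CPM in miR-6133-5p. The higher of the miR-6133-5p libraries lay below the lower control. RARA fell by 0.48 on the log2 scale (SE 0.11, n = 2 per group, adjusted p = 0.00607), a level 1.40-fold lower. The fall did not pass with library totals alone (-0.32, adjusted p = 0.0447) or without miControl replicate 1 (-0.37, adjusted p = 0.139) or replicate 2 (-0.63, adjusted p = 0.0127). Exons of antisense genes cover 21.4% of the RARA exons, and RARA-AS1, the antisense gene with counts, had 23 to 61 per library against 1755 to 2794 for RARA.

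RARB (ENSG00000077092, chromosome 3, 24729378 to 25639423, plus strand), itself a well-known retinoic acid-induced gene and the owner of the DR5 stretch above, stood at 1.81 and 1.76 CPM in miControl and at 3.78 and 3.55 CPM in miR-6133-5p. The libraries of a group lay close together and the groups were far apart. RARB rose 2.05-fold, by 1.03 on the log2 scale (SE 0.20, n = 2 per group, 95% interval 0.60 to 1.47, adjusted p = 0.00164). Leaving out a library moved the log2 fold change only between 0.97 and 1.07, but with a single control left the adjusted p was 0.0273 without miControl replicate 1 and 0.0249 without replicate 2. A test against a log2 fold change of 0.8 itself (glmTreat) did not call it.

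RARG (ENSG00000172819, chromosome 12, 53604351 to 53626764, minus strand), a receptor best known from skin, had 9.62 and 9.38 CPM in miControl and 10.4 and 9.96 CPM in miR-6133-5p. The groups did not overlap, but the gap was small. Its log2 fold change of 0.10 (SE 0.13, n = 2 per group, 95% interval -0.18 to 0.37) did not pass (adjusted p = 0.623).

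RXRA (ENSG00000186350, chromosome 9, 137208944 to 137332431, plus strand) is the shared partner of the RAR and PPAR proteins. It was measured at 21.7 and 20.6 CPM in miControl and at 14.2 and 16.2 CPM in miR-6133-5p, so the groups again did not overlap and miR-6133-5p was the lower. RXRA fell by 0.47 on the log2 scale (SE 0.12, n = 2 per group, adjusted p = 0.00871), which is 1.39-fold lower and close to the threshold on p. The fall did not pass with library totals alone (-0.31, adjusted p = 0.0588), without miControl replicate 1 (adjusted p = 0.110), without miControl replicate 2 (adjusted p = 0.0442) or without miR-6133-5p replicate 1 (adjusted p = 0.0168). RXRB, the closest partner gene, had 43.1 to 44.4 CPM in miControl and 42.6 to 44.6 CPM in miR-6133-5p with a log2 fold change of -0.0038 (SE 0.10, 95% interval -0.22 to 0.22), and RXRG had at most 2 counts in a library.

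PPARG (ENSG00000132170, chromosome 3, 12328867 to 12475855, plus strand) was scarce, with 22 and 6 counts in miControl and 11 and 28 in miR-6133-5p. The controls differed from each other more than the groups did. Its log2 fold change was -0.26 (SE 0.66, n = 2 per group, 95% interval -1.69 to 1.17, adjusted p = 0.817) and turned to 1.03 without miControl replicate 1, so that at this depth neither a loss nor a gain of PPARG was detectable. PPARD, the most abundant PPAR gene here, had 96.6 and 86.8 CPM in miControl and 57.8 and 58.4 CPM in miR-6133-5p, and fell by 0.66 on the log2 scale (SE 0.10, adjusted p = 0.000351). PPARA had a log2 fold change of 0.25 (SE 0.12, adjusted p = 0.139).

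The perilipins differed from each other. PLIN2 (ENSG00000147872, chromosome 9, 19108373 to 19149288, minus strand), which sits on droplets in most cells that hold them, was measured at 8.14 and 8.56 CPM in miControl and at 8.24 and 8.07 CPM in miR-6133-5p. The libraries of the groups overlapped. Its log2 fold change of -0.03 (SE 0.13, n = 2 per group, 95% interval -0.32 to 0.25, adjusted p = 0.885) was 0.13 with library totals alone (adjusted p = 0.484).

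PLIN3 (ENSG00000105355, chromosome 19, 4838353 to 4867706, minus strand) codes for a perilipin that moves between the cytosol and newly formed droplets. It was measured at 70.3 and 64.1 CPM in miControl and at 114 and 119 CPM in miR-6133-5p, well apart. PLIN3 rose 1.73-fold, by 0.79 on the log2 scale (SE 0.10, n = 2 per group, 95% interval 0.57 to 1.02, adjusted p = 8.34e-05), just short of the 0.8 needed for a call. It was the only member that passed under every other normalization, filter and tool and without each library, with an adjusted p of at most 0.00943. An antisense gene without a symbol overlaps 18.3% of its exons and had 0 counts in all 4 libraries. PLIN1, the fat cell perilipin, had 7 and 2 counts in miControl and 20 and 22 in miR-6133-5p, with a log2 fold change of 1.55 that did not pass (SE 0.72, adjusted p = 0.123). PLIN4 stood at -0.38 (SE 0.31, adjusted p = 0.388), and PLIN5 had 6 counts in miControl replicate 2 and 0 elsewhere.

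**Figure D2:**
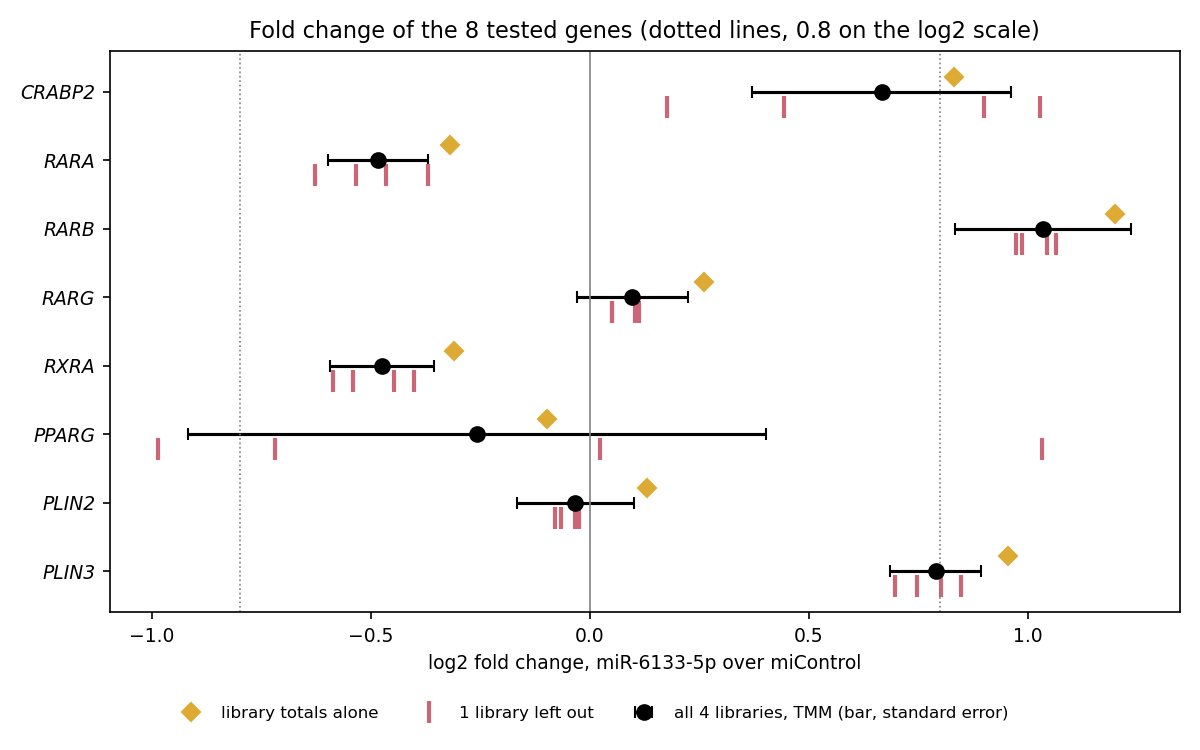
Log2 fold change of the 8 tested genes, miR-6133-5p over miControl, with all 4 libraries and TMM (point, bar of 1 standard error), with library totals alone (diamond) and with 1 library left out (ticks); dotted lines mark 0.8 either way. RARB and PLIN3 stay right of 0 and RARA and RXRA left of 0 at every mark, while the ticks of PPARG lie on both sides. The marks of CRABP2 and RARG, which did not pass, also all lie right of 0, though the bar of RARG spans 0.

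To compare genes with each other, CPM was divided by the exon length in kb. In miControl, PLIN3 was the most abundant member (23.4 to 25.7 CPM per kb), followed by RARA (7.44 to 8.80). RARG, RXRA, PLIN2 and CRABP2 came next, between 1.26 and 1.88 CPM per kb, with ranges that touched each other apart from RARG, whose libraries (1.83 and 1.88) were the highest of these. RARB (0.187 to 0.192 CPM per kb), PPARG (0.0092 to 0.0373) and LRAT (0 to 0.0054) followed with no overlap. In miR-6133-5p the ends of this order were unchanged, with PLIN3 at 41.6 to 43.3 and RARA at 5.66 to 5.94 CPM per kb, and RXRA (1.18 to 1.34) then lay below RARG (1.94 to 2.02), PLIN2 (1.61 to 1.65) and CRABP2 (1.73 to 3.11). With the longest transcript as the length, PLIN2 (4.29 to 4.51 CPM per kb in miControl) lay above RARG and RXRA, so the order of these genes depended on the length used.

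Shares within a family depend on no scaling between libraries, and are given without a test because 2 libraries against 2 allow no exact permutation p below 0.333. RARA made up 81.0% and 78.7% of the RAR level per kb in miControl and 70.0% and 71.9% in miR-6133-5p. RARB made up 1.76% and 1.97% in miControl and 4.95% and 4.55% in miR-6133-5p, and RARG went from 18.3% ± 1.48 to 24.3% ± 1.07 (SD, n = 2). The 3 genes together stood at 10.9 and 9.45 CPM per kb in miControl and at 8.08 and 8.26 in miR-6133-5p. RXRA made up 13.6% and 13.4% of the RXR level in miControl and 9.32% and 10.9% in miR-6133-5p, and RXRB held nearly all of the rest. PPARG was 0.100% ± 0.081 of the PPAR level in miControl and 0.122% ± 0.041 in miR-6133-5p, with PPARD at 91.2% ± 0.213 and 84.7% ± 1.63 (SD, n = 2). PLIN3 was already 92.8% ± 0.713 of the perilipin level in miControl and was 95.8% ± 0.154 in miR-6133-5p, while PLIN2 was 6.32% ± 0.593 and 3.68% ± 0.151 (SD, n = 2). The summed perilipin level was 27.5 and 25.3 CPM per kb in miControl and 43.4 and 45.1 in miR-6133-5p. The shares of RARA, RARB, RXRA and PLIN3 moved by more than their SD when the longest transcript was the length, but the direction between the groups was the same.

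**Figure D3:**
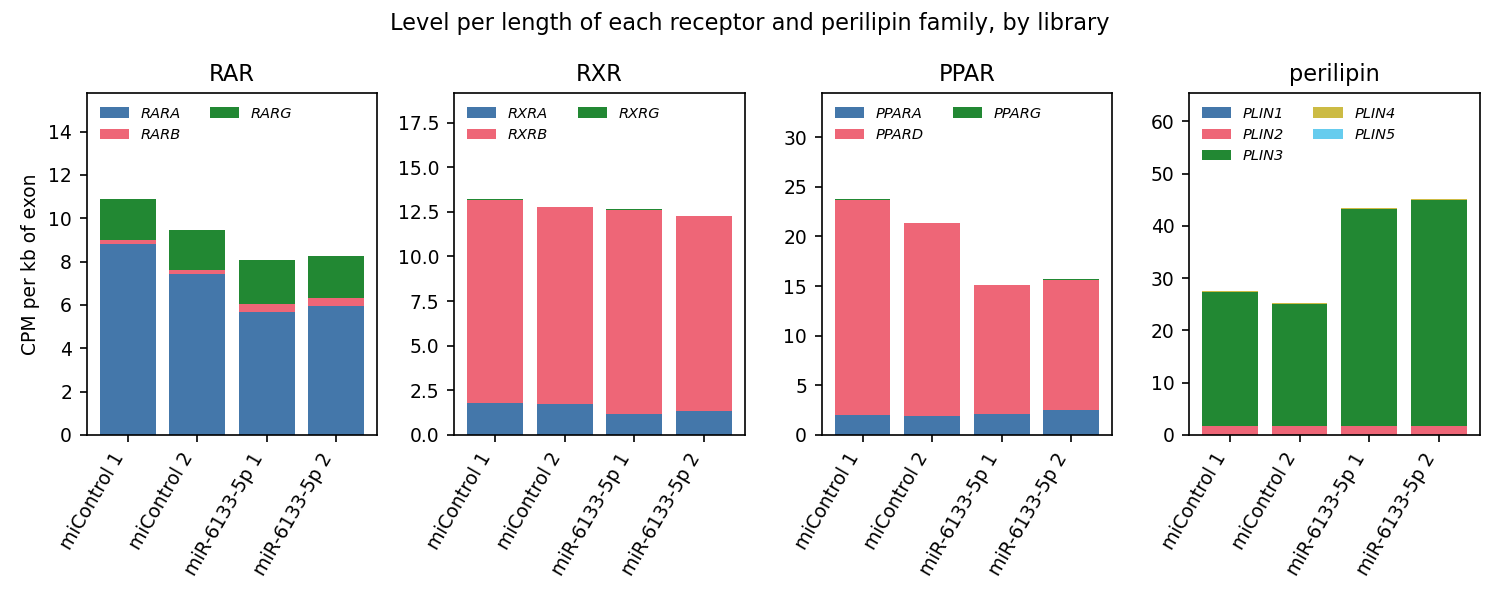
CPM per kb of exon for the genes of the RAR, RXR, PPAR and perilipin families, stacked in each of the 4 libraries. The RAR and PPAR bars are shorter with miR-6133-5p, mostly through RARA and PPARD, the RXR bars are nearly level, and the perilipin bars are taller through PLIN3.

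The genes around these members were taken from 9 lists written by hand, with 229 distinct genes in all, of which 175 were tested and 51 passed, 23 higher and 28 lower. Beside these and the following counts by edgeR with TMM stand shares over all tested genes of 7.96% higher and 10.9% lower, and several lists lie near them. No such shares are given for counts by DESeq2, at other thresholds on p or with a library left out. No list was tested as a set. The members are counted in the lists that hold them. Without miControl replicate 1, 18 of the 51 genes passed, and without miControl replicate 2, 20 did. With library totals alone, 35 list genes were higher and 17 lower, beside 2826 and 1415 of all 18252 tested genes. Under every alternative applied to them 15 passed, among them ALDH1A3, NCOA2, NCOA6, NR2F1, NR2F2, NRIP1, TGM2, EGR1, HOXB2, HOXB4, MEIS1, UCP2, MGLL and PLIN3. Antisense exons overlap 13.3% of the exons of MEIS1, 18.8% of CCDC43, 30.3% of AGPAT1, 10.5% of PNPLA2 and 45.9% of CRABP1, and for the other named genes that passed, overlaps over 10% are given beside the gene. In the list of retinol uptake and binding, 0 of 5 tested genes passed by edgeR and 0 by DESeq2, with a median log2 fold change of -0.17. An unadjusted p below 0.05 was reached by 1 gene that was higher, CRABP2, and 1 that was lower, the retinol receptor STRA6 (log2 fold change -0.83, SE 0.30, adjusted p = 0.057). CRABP1 had 0 counts in every library, and the plasma retinol carrier RBP4 had 2 counts in 1 library and 0 elsewhere.

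In the list of retinol storage and metabolism, 2 of 17 tested genes rose and 0 fell by edgeR and by DESeq2, with a median log2 fold change of 0.12. At an unadjusted p below 0.05, 8 genes were higher and 1 was lower. ALDH1A3, which makes retinoic acid, rose from 3.97 and 4.04 CPM to 8.40 and 8.62 CPM (log2 fold change 1.09, SE 0.15, adjusted p = 0.000106), and antisense exons overlap 32.2% of its own. ADH5, an alcohol dehydrogenase, rose by 0.51 on the log2 scale (SE 0.10). The retinoic acid-degrading enzyme CYP26A1 and the synthesizing enzyme ALDH1A1 had 0 counts in every library.

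Receptors of the retinoid group and their coregulators moved in both directions, with 5 of 24 tested genes higher and 8 lower and a median log2 fold change of -0.31. The coactivator NCOA2 rose by 1.05 (SE 0.15), and NR2C1, SIN3A and NCOA7 rose by 0.54, 0.46 and 0.46. NCOA7 was close to the threshold on p (adjusted p = 0.00843). It did not pass with RLE factors (adjusted p = 0.01002) or with counts thinned to the lowest total (adjusted p = 0.01015). The largest falls were those of the coactivator NCOA6 (-1.21, SE 0.11), the orphan receptor NR2F1 (-1.14, SE 0.10) and the corepressor NRIP1 (-0.98, SE 0.14). With library totals alone, 5 genes of this list were higher and 5 lower, RARA and RXRA being among those lost.

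Among 28 tested genes known to be induced by retinoic acid, 5 rose, RARB among them, and 7 fell, with a median log2 fold change of -0.19. The list held 7 higher and 7 lower genes with library totals alone, and its median was then -0.02. By DESeq2, 4 genes were higher and 9 were lower. The risers beside RARB were the transglutaminase TGM2 (1.29, SE 0.14), HOXA3 (0.97, SE 0.22), the chemerin gene RARRES2 (0.87, SE 0.16) and TNFAIP2 (0.77, SE 0.10). HOXA3 was low, at 1.38 to 2.81 CPM over all libraries, and antisense exons overlap 17.3% of its own. It did not pass by DESeq2 (adjusted p = 0.0109). EGR1, an immediate early transcription factor, fell most (-2.40, SE 0.14), from 19.1 and 16.9 CPM to 3.43 and 3.40 CPM. HOXB4 (-1.72, SE 0.11), MEIS1 (-1.06, SE 0.10) and NRIP1 followed. The cytochrome gene CYP26B1 had a log2 fold change of 0.56 (SE 0.23, adjusted p = 0.076) and DHRS3 of 1.09 (SE 0.46, adjusted p = 0.0918), and neither passed.

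In the list of PPAR receptors and cofactors, 3 of 14 tested genes fell and 0 rose, with a median log2 fold change of -0.17. At an unadjusted p below 0.05, 5 were lower and 1 was higher, and DESeq2 gave 4 lower and 0 higher. The genes that fell were PPARD, CEBPB (-0.60, SE 0.13) and the oxysterol receptor NR1H2 (-0.52, SE 0.11), and with library totals alone only PPARD of them passed. Antisense exons overlap 22.1% of the NR1H2 exons and 12.6% of those of CEBPB. Among PPAR target genes, 6 of 31 tested genes rose and 2 fell, with a median of 0.20. Without miControl replicate 1, and likewise without replicate 2, 0 passed as higher. The largest rise was that of PDK4 (1.74, SE 0.40), a kinase that shuts off pyruvate dehydrogenase, from 0.244 and 0.331 CPM to 0.918 and 1.01 CPM. It did not pass by DESeq2 (adjusted p = 0.0125) or without miR-6133-5p replicate 2 (adjusted p = 0.0121). The other risers belong to fatty acid oxidation and were led by ACAA2 (0.64, SE 0.12), ACADVL (0.56, SE 0.10) and ETFDH (0.49, SE 0.12). UCP2, a mitochondrial carrier, fell by 1.53 (SE 0.11) and ANGPTL4, an inhibitor of lipoprotein lipase, by 1.11 (SE 0.18).

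In the list of droplet coat and assembly proteins, 3 of 28 tested genes rose and 1 fell, with a median log2 fold change of 0.16. METTL7A rose by 2.90 (SE 0.41) from a very low level of 0.122 and 0.257 CPM to 1.499 and 1.39 CPM, and 18.9% of its exon length is shared with a gene on its own strand. PLIN3 and CCDC43 (0.55, SE 0.11) were the other risers. FITM2, a protein of the endoplasmic reticulum needed for droplet budding, fell by 0.57 (SE 0.10). In triglyceride synthesis and breakdown, 2 of 31 tested genes rose and 5 fell, with a median of -0.02. With library totals alone the balance turned to 7 higher and 1 lower, with a median of 0.14, and the median of all tested genes was then 0.19. DGAT2, which adds the last acyl chain of a triglyceride, rose from 3.99 and 3.97 CPM to 8.27 and 7.41 CPM (log2 fold change 0.98, SE 0.15), and AGPAT2 rose by 0.65 (SE 0.11). The monoglyceride lipase MGLL fell from 162 and 151 CPM to 44.5 and 46.2 CPM, by 1.78 on the log2 scale (SE 0.11, adjusted p = 1.18e-07). NCEH1, AGPAT1 and AGPAT3 fell by 0.53, 0.47 and 0.45, and none of these passed with library totals alone. The triglyceride lipase PNPLA2 had a log2 fold change of 0.40 (SE 0.12, adjusted p = 0.0213) and did not pass.

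Of 19 tested genes on the hand-written list of resting stellate cell markers, 1 rose and 3 fell, with a median log2 fold change of 0.00. This balance was 2 higher and 1 lower with library totals alone and 1 higher and 5 lower by DESeq2. Without miControl replicate 1, 0 were higher and 1 lower, without miControl replicate 2 neither direction had any, and without miR-6133-5p replicate 2, 1 was higher and 5 were lower. SREBF1, a regulator of lipid synthesis, rose by 0.50 (SE 0.11). NES (-1.49, SE 0.36), HHIP (-0.93, SE 0.15) and GATA4 (-0.48, SE 0.12) fell. With library totals alone, NES (-1.33, adjusted p = 0.0116) and GATA4 (-0.32, adjusted p = 0.0545) did not pass, and HHIP did. Whether each listed gene, NES included, marks the resting state, in LX-2 cells or elsewhere, was not tested. These falls are therefore not read as a loss of that state. The other 15 of the 34 listed genes missed the filter on low counts, LRAT, GFAP, DES and HGF among them, and could not be compared.

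**Figure D4:**
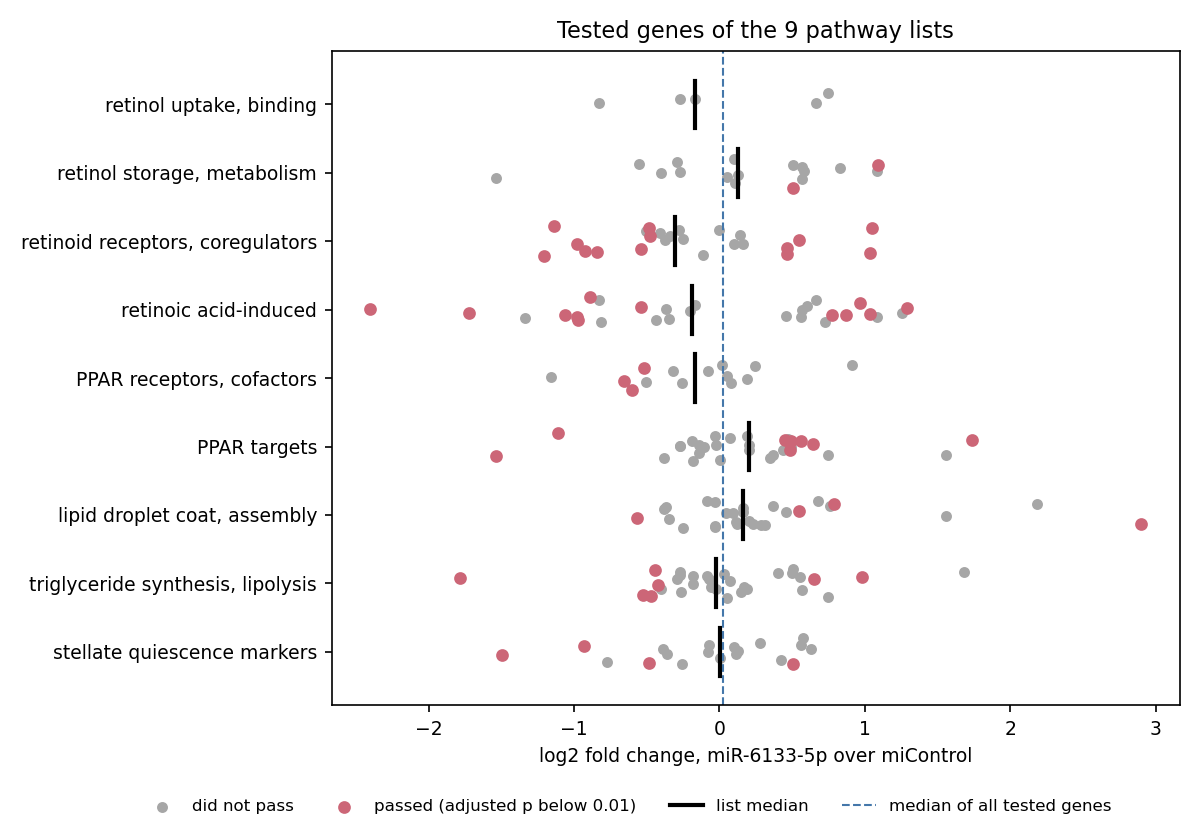
Log2 fold change (miR-6133-5p over miControl) of every tested gene of the 9 lists, with genes that passed in colour, the median of each list as a bar and the median of all tested genes as a dashed line at 0.03. The list medians lie between -0.31 and 0.20, and 6 of the 9 lists hold genes that passed on either side.

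Of 14 tested mesenchymal markers, 6 fell and 0 rose, with a median log2 fold change of -0.71. At an unadjusted p below 0.05, 9 were lower and 2 higher, and DESeq2 gave 6 lower and 1 higher. On library totals alone 4 were lower and 1 was higher. The genes that fell included ACTA2 (-1.95, SE 0.12, with 35.9% of its exons under antisense exons) and COL1A1 (-1.46, SE 0.11). Markers of other liver and fat cells were scarce. The summed level of the hepatocyte list was 2.95 to 4.25 CPM per library, that of the endothelial list 5.58 to 6.24, that of the macrophage list 9.24 to 11.4 and that of the adipocyte list 5.15 to 8.23 CPM, and 0 of the 3, 4, 3 and 3 genes tested in them passed by edgeR or DESeq2, with 0, 0, 1 and 2 at an unadjusted p below 0.05. HNF4A, CD163 and ADIPOQ had 0 counts in every library. The cholangiocyte list, at 228 to 293 CPM, had 3 tested genes, of which KRT7 and SLC4A2 rose and SOX9 fell. The adipocyte list shares PLIN1, CIDEC and LIPE with the lipid lists. The part of any of these in the results on the 9 genes was not tested.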

How the data were processed

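Counts came from 4 libraries of LX-2 cells, 2 per group. Per the submitters' processing notes, GRCh37, STAR 2.5.3a and featureCounts of Subread 1.6.4 were named. The authors deposited read counts per Ensembl gene as whole numbers, without normalization, in a joint table and in 4 files of single libraries that equalled its columns. The mapping summary deposited by the authors gave the fraction of read pairs that mapped uniquely. The library kit marks strand per the labels. The annotation release and the strand setting of the counting are not given in the sources used here. Total counts were 1.68 to 1.70 per uniquely mapped pair, so that a count is not the same as a read pair. The floor of 3 counts and other small counts may therefore stand for fewer read pairs.

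Of 63677 gene identifiers, 55665 matched a symbol. Genes were filtered with filterByExpr, which left 18252 (17717 with a symbol), normalized with TMM (factors 0.948, 0.941, 1.06 and 1.06) and fitted with the glmQLFit function (edgeR 4.0.16, R 4.3.3). The quasi-likelihood test was 2-sided, with Benjamini-Hochberg adjustment over all tested genes. The thresholds of 0.01 and 0.8 follow the study's methods. Standard errors came from the F statistic. Replicates differed beyond counting noise, with chi-square values per degree of freedom at 14.4 (miControl) and 52.6 (miR-6133-5p). No interval was made from counts alone, and the floor of 3 counts (0.0303 to 0.0610 CPM) covers counting error only. Gene positions, exon lengths and overlaps were taken from GENCODE genes lifted to GRCh37. The counting may have used other gene models.

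The 9 genes and the lists were chosen with earlier results of these data known. All 9 genes are named, and from each list up to 4 of the largest rises and 4 of the largest falls among genes that passed, then genes that a small count refers to. RXRB, RXRG, PPARA, PPARD, PLIN1, PLIN4, PLIN5 and CRABP1 are named as relatives. STRA6, RBP4, ALDH1A1, CYP26A1, CYP26B1, DHRS3, PNPLA2, GFAP, DES, HGF, VIM, PDGFRB, NR2F2, HOXB2 and the markers of other cells were named after their values were seen. A few list genes are not reported here by name. Alternatives were RLE factors, library totals alone, DESeq2 1.42.0, no filter, at least 10 counts in every library, a replicate block, glmTreat, libraries left out in turn, counts thinned to the lowest total, an adjusted p of 0.05 and the longest transcript as length. On simulated data with 200 genes changed by 2 on the log2 scale among 18252, edgeR found 186 (93%) with 0 false calls. The simulation gave every gene the same dispersion and a larger change than any of the 9 genes had. It therefore does not give the power or the error rate for them. Plots and tables were made with Python 3.11.15, numpy 2.4.6, pandas 2.3.3 and matplotlib 3.10.9.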

Additional observations from a re-analysis of the deposited data

How the results depend on the processing

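With library totals alone, 2 of the 9 genes passed and 2 were called (RARB and PLIN3), RARA was at -0.32 and RXRA at -0.31 and neither passed, PLIN2 turned to 0.13, and 35 list genes passed as higher and 17 as lower, against 23 and 28 with TMM. This setting by construction leaves out the factors that shifted the median of all genes. Over all 18252 tested genes, 2826 then passed as higher and 1415 as lower, against 1452 and 1984 with TMM. At an adjusted p of 0.05, 38 list genes were higher and 40 lower. By glmTreat 0 of the 9 genes were called. Leaving out 1 library gave 1 to 5 of the 9 genes that passed, 0 to 2 called, and 6 to 29 list genes higher and 12 to 41 lower. The lowest counts that passed came without a miControl library, where the control left is assumed to vary like the other group. With each library left out in turn, the log2 fold change ranged from 0.18 to 1.03 for CRABP2 and from -0.63 to -0.37 for RARA. The range was 0.97 to 1.07 for RARB, 0.05 to 0.11 for RARG and -0.59 to -0.40 for RXRA. It was -0.99 to 1.03 for PPARG, -0.08 to -0.02 for PLIN2 and 0.70 to 0.85 for PLIN3. With the longest transcript as length, the miControl and miR-6133-5p shares were 2.38% and 5.93% for RARB, 76.4% and 66.5% for RARA, 19.5% and 14.9% for RXRA and 86.6% and 92.0% for PLIN3. The replicate numbers are not shown to pair the libraries. Over the tested genes, the difference in log2 CPM between replicates 1 and 2 in miControl correlated at 0.049 with that in miR-6133-5p. With the replicate block 4 of the 9 genes passed and 1 was called, RARB was at 1.03 and PLIN3 at 0.79, and 33 list genes were higher and 38 lower. Of the 51 list genes that passed, 15 did so under every alternative but glmTreat, which was not applied to them, and none reversed. DESeq2 gave no adjusted p for PPARG. Matches to the microRNA seed in 3′ UTRs were not run here. Depth limits LRAT and PPARG.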
